A study of Mus musculus with 10 samples.

Results

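Hyaluronan is a very long sugar polymer of the extracellular matrix, and the 10 genes described here are those that make it, break it down or bind it: the synthases Has1, Has2 and Has3, the breakdown genes Hyal1, Hyal2 and Cemip, and the binding genes Cd44, Vcan, Hmmr and Hapln1. They were chosen by name for their known roles, by a rule that uses no measured value but with earlier results of these data known, and all 10 were found among the 48397 gene symbols counted. RNA was sequenced in bulk from the left atrium of wild-type mice of 2 groups, Sham and TAC. TAC is transverse aortic constriction, a narrowing of the aortic arch that raises the load on the heart, and Sham is the operation without it. The mice were male C57BL/6J, were operated at 2 months of age and were sampled 2 weeks later, and the labels name no transgene or drug for either group. Each group had 5 libraries, whose numbers come from the sample titles. Nothing in the labels ties a library to an animal of its own, so the p-values below measure only the spread between these samples, which may in part be technical. The sources name the tissue as left atrium in one place and left appendage in another.

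Hyaluronan is spun out through the plasma membrane by synthases that join UDP-glucuronic acid and UDP-N-acetylglucosamine, rather than being built on a protein core in the Golgi like other glycosaminoglycans. Outside the cell it is cut by hyaluronidases and taken up through receptors, and it is held in place by proteoglycans such as versican, which link proteins fasten to the chain. In the heart it is best known from the cardiac jelly and the endocardial cushions of the embryo, which need Has2 and versican, and in adult tissue it is a component of the matrix laid down after injury.

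In TAC left atria, 4 of the 10 genes were higher and 2 were lower. Cemip, which depolymerises hyaluronan, was near 0 in Sham and rose to 16.4 CPM (reads of the gene for every 1e+06 reads counted, scaled with TMM factors), and Hmmr, a hyaluronan receptor that also sits on the mitotic spindle, rose from 0.474 to 41.5 CPM. Vcan rose 3.23-fold and Cd44 1.55-fold. Has2 and Has3 fell to 0.443 and 0.429 of their Sham level, and Has1, Hyal1, Hyal2 and Hapln1 were not called. The threshold for a call was 0.05, on p-values of edgeR's quasi-likelihood test that were adjusted by Benjamini-Hochberg over all 15175 genes tested. By that rule 28.9% of all tested genes were higher and 27.9% were lower, so the members' counts (4 and 2 of 10) are to be read against a background in which more than every second gene moved. The groups did not overlap for 4 of the 10 members, namely Has2, Cemip, Hmmr and Vcan, against 41.7% of all tested genes. All 10 members passed the filter on low counts. Cemip passed it on its TAC libraries alone, since 0 Sham libraries reached the filter's 0.309 CPM, and Hapln1 passed with 1 Sham and 4 TAC libraries, so a gene that low had to be higher in TAC to be tested at all. Hmmr passed with 3 Sham and 5 TAC libraries, and its Sham libraries alone would not have passed it.

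**Figure D1:**
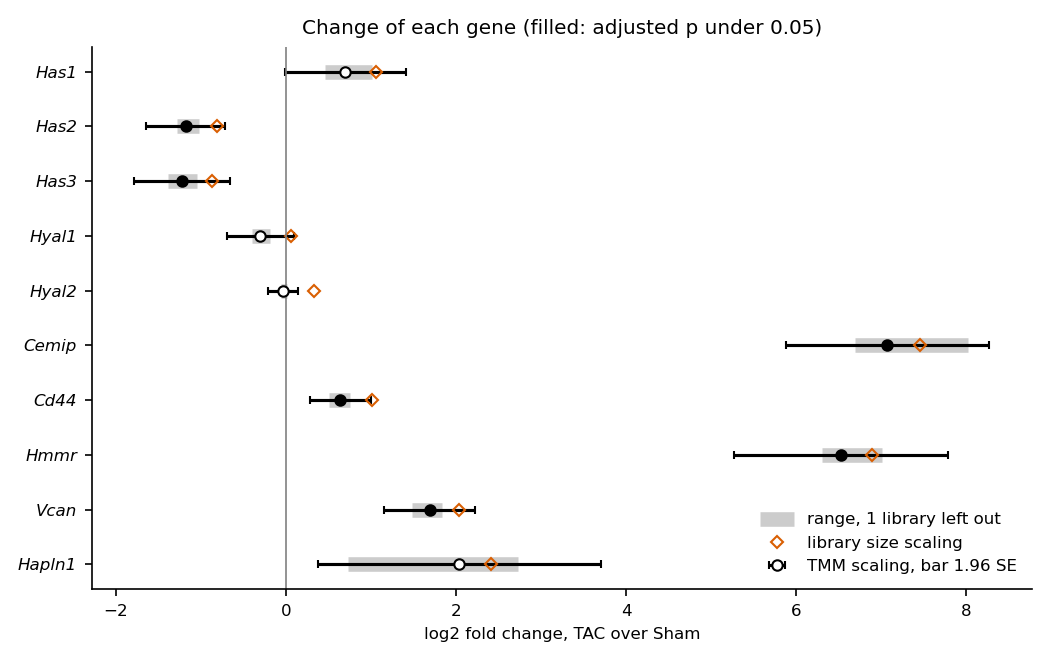
Log2 fold change of TAC over Sham for the 10 hyaluronan genes (horizontal axis), as circles (filled where called). Bars are approximate 95% intervals, the normal multiplier times the standard error, from edgeR's quasi-likelihood fit of 5 Sham and 5 TAC libraries. Grey bands show the range with 1 library left out, and diamonds show library size scaling. Cemip at 7.07 and Hmmr at 6.53 lie far to the right, Has2 at -1.17 and Has3 at -1.22 lie to the left, and the interval of Hyal2 runs from -0.21 to 0.14.

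The libraries held 17117306 to 43956384 counts in genes, with the 2 shallowest in Sham. The median log2 fold change over all tested genes was 0.01, but scaling by library size alone moved it to 0.37, and the share of called genes that were higher moved from 50.9% to 80.1%. Directions of small changes are therefore relative to the TMM scaling. The list of 9 atrial cardiomyocyte markers summed to 76850 to 90260 CPM in Sham and 41690 to 54190 in TAC. Of these, 1 gene was called higher (Nppa, 5663 to 9834 CPM) and 7 lower, among them Myl7, Myl4 and Sln. The list includes the general cardiomyocyte genes Myh6, Actc1 and Tnnt2, which held much of the sum, so the sum alone does not mark the tissue as atrial. Ventricular markers summed to at most 51.3 CPM in all libraries but Sham 5, which held 222. In bulk tissue, fewer cells of a type and less RNA per cell cannot be told apart, and this holds for every gene below.

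The promoters of Cemip, Hmmr and Vcan are printed first, because these genes rose with no overlap between the groups and the RefSeq table held their sequence (GRCm38.p6, 250 bases before to 50 after the start of the transcript, read 5′ to 3′ along the gene). Capitals mark every match, on either strand, of the motifs searched: CCAAT, the box bound by NF-Y; TGANTCA, the AP-1 site; GGAATG, the TEAD site; and TTTGAA, the CHR element of cell-cycle promoters. A CCAAT box on the opposite strand reads ATTGG. These regions lie on the reverse strand, at chr7:84086456-84086755 for Cemip, chr11:40733388-40733687 for Hmmr and chr13:89742463-89742762 for Vcan.
Cemip: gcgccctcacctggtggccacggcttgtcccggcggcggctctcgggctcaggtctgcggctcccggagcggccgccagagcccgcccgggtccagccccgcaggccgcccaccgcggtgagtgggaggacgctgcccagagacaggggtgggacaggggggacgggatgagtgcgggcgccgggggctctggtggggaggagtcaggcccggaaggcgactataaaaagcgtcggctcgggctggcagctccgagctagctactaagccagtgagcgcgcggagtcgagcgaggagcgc
Hmmr: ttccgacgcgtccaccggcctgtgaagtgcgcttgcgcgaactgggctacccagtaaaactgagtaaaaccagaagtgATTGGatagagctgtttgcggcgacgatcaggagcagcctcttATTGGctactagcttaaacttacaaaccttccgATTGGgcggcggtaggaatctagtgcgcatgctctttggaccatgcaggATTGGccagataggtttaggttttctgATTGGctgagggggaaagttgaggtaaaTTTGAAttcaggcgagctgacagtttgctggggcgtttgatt
Vcan: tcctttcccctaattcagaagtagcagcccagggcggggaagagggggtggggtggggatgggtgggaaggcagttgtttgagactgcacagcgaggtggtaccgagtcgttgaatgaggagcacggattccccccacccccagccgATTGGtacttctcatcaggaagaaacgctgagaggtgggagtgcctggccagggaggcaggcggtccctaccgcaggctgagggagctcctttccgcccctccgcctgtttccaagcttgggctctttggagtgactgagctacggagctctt
The Hmmr promoter held 5 CCAAT boxes, all on the opposite strand, at 172, 129, 96, 47 and 20 bases before the start, and a TTTGAA 8 bases after it. Vcan held 1 CCAAT box, at 103 bases before the start, and Cemip held no match of any of the 4 motifs in a sequence of 73.7% G and C. Among 32851 promoters of the same length, 37.4% held at least 1 CCAAT box, 11.7% at least 2 and 0.271% at least 5. TGANTCA was present in 7.81%, GGAATG in 14.7% and TTTGAA in 17.9%. Of the 18 genes of a mitosis list with a promoter in the table, 16 held a CCAAT box and 10 held at least 2. The table matched 8 of the 10 members, and among the others Has1 held 1 CCAAT and 1 TTTGAA, Hyal1 1 CCAAT, Hyal2 1 GGAATG, and Cd44 and Hapln1 none of the 4. A match describes letters in this window and is not evidence of binding.

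The synthases come first in the path, and 2 of the 3 fell. Has2, the synthase of the embryonic heart and the most abundant of the 3 per kb of exon in Sham, lies on chromosome 15 at 56665627 to 56694539 (GRCm38, reverse strand). Sham 1 to 5 held 2.98, 2.43, 3.22, 2.99 and 2.44 CPM of Has2, and TAC 1 to 5 held 0.879, 1.55, 1.63, 1.44 and 0.765. Every TAC library was below every Sham library, the highest TAC value being 1.63 and the lowest Sham value 2.43. The mean fell from 2.81 ± 0.358 (SD, n = 5) to 1.25 ± 0.400 CPM, a log2 fold change of -1.17 (SE 0.24, edgeR's quasi-likelihood adjusted p = 0.0013; exact two-sided permutation p = 0.0079, the smallest that 252 regroupings allow). These values rest on 29 to 116 reads per library. Of the exonic bases of Has2, 4.30% are shared with its antisense transcript Has2os, which was lower as well (0.532 to 0.307 CPM, log2 fold change -0.78, SE 0.26). The strand setting of the counting is not given in the sources used here, so reads of this pair cannot be told apart over the shared bases.

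Has3, the synthase described as making the shorter chains, lies on chromosome 8 at 106870242 to 106884566. Its level was 2.86, 3.07, 3.16, 4.46 and 1.69 CPM in Sham 1 to 5 and 1.76, 0.723, 1.54, 1.35 and 1.19 CPM in TAC 1 to 5. The groups overlapped at 1 point, as Sham 5 was below TAC 1. The mean of Has3 fell from 3.05 ± 0.986 to 1.31 ± 0.392 CPM, which is a log2 fold change of -1.22 (SE 0.29, edgeR's quasi-likelihood adjusted p = 0.0033; exact permutation p = 0.016). Chtf8 on the opposite strand shares 5.52% of the exonic bases of Has3 and went from 58.0 to 50.8 CPM (log2 fold change -0.19).

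Has1, the third synthase (chromosome 17, 17843323 to 17855205), was not called. Sham 1 to 5 had 2.48, 0.959, 1.16, 0.490 and 1.69 CPM and TAC 1 to 5 had 2.52, 2.37, 1.45, 1.79 and 2.61 CPM. Sham 1 lay among the TAC libraries, while 3 other Sham libraries lay below all of TAC. The log2 fold change was 0.70 (SE 0.36, 95% interval -0.01 to 1.41, edgeR's quasi-likelihood adjusted p = 0.12; exact permutation p = 0.095). Without Sham 1 it was 1.01 with an adjusted p of 0.026, and without Sham 4 it was 0.46 with an adjusted p of 0.22, so its size rests on single Sham libraries.

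Per kb of exon, the 3 synthases together summed to 1.44 ± 0.200 CPM per kb in Sham (1.21 to 1.70) and 0.976 ± 0.0434 in TAC (0.945 to 1.04), a ratio of TAC to Sham of 0.678. With library size scaling the ratio was 0.865. The make-up of this sum within a library does not depend on scaling. Has2 held 46.2 ± 3.27% of it in Sham (41.4% to 50.3%) and 30.4 ± 10.1% in TAC (19.1% to 40.6%). Has1 held 20.8 ± 10.6% in Sham (7.16% to 32.3%) and 48.6 ± 10.7% in TAC (33.9% to 61.2%), and neither share overlapped between the groups. The share of Has3 was 33.0 ± 9.60% and 21.1 ± 6.07%, with overlap. Has1 was thus the lowest synthase on average in Sham and the highest in TAC. No test was made of a sum or share over members.

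**Figure D2:**
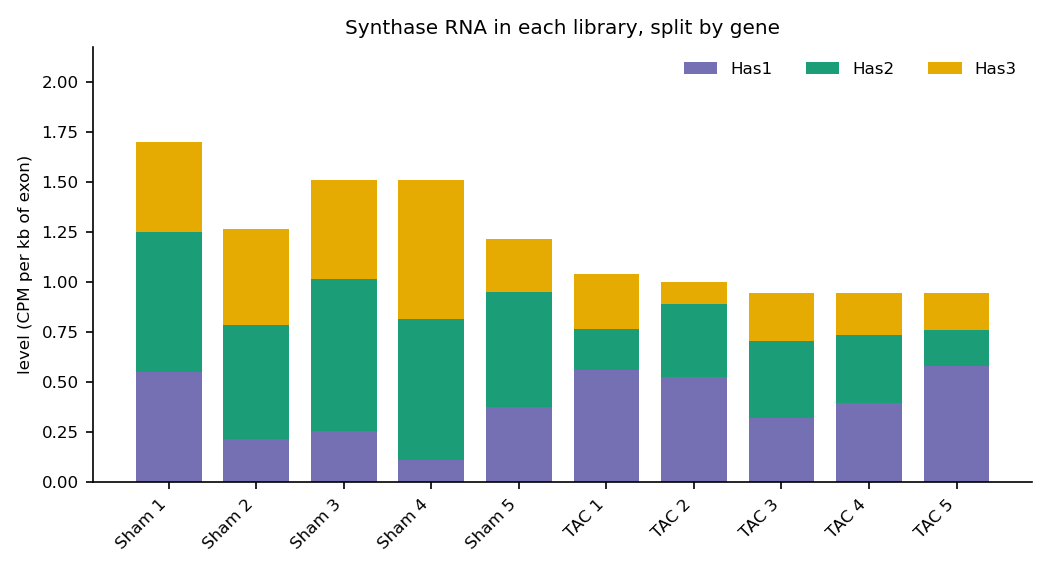
Summed synthase level (CPM per kb of exon, vertical axis) in each of the 5 Sham and 5 TAC libraries, as stacked bars split into Has1, Has2 and Has3. The Has1 share is 7.16% to 32.3% in Sham and 33.9% to 61.2% in TAC, while the Has2 share is 41.4% to 50.3% and 19.1% to 40.6%.

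The sugars that the synthases use come from a list of 11 genes of UDP-sugar supply, all tested. Of these, 2 were higher and 5 lower in TAC, with a median log2 fold change of -0.17. With library size scaling the counts became 6 higher and 1 lower and the median 0.19, and Gfpt1, Gpi1 and Ugp2 changed sign. Among the lower genes were Hk2, a hexokinase (242 ± 30.2 to 130.0 ± 17.01 CPM, log2 fold change -0.90, SE 0.11), Gfpt2, which starts the hexosamine branch (33.9 ± 8.39 to 20.5 ± 2.47 CPM, -0.73, SE 0.16), and Uap1, which makes UDP-N-acetylglucosamine (80.9 ± 11.6 to 55.2 ± 2.67 CPM, -0.55, SE 0.09). Gnpnat1, the acetyltransferase of the same branch, was higher (6.97 ± 0.614 to 11.4 ± 0.770 CPM, 0.71, SE 0.10). The other gene that rose was Ugdh, named after its values were seen, which makes UDP-glucuronic acid (20.1 ± 2.81 to 31.5 ± 2.55 CPM, 0.64, SE 0.10).

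Among the breakdown genes, Cemip stood apart from the hyaluronidases. Cemip encodes a secreted protein that binds hyaluronan and is needed for its depolymerisation by fibroblasts, and lies on chromosome 7 at 83932857 to 84086502. Its read counts were 0, 4, 1, 1 and 9 in Sham 1 to 5, or 15 in all, and 354, 1144, 424, 695 and 468 in TAC 1 to 5. In CPM the TAC libraries held 8.19, 28.5, 12.5, 20.4 and 12.3 and the highest Sham library held 0.338. The count of 0 in Sham 1 allows a level of up to 0.186 CPM, counting error only, and the lowest TAC library was far above it. The log2 fold change was 7.07 (SE 0.61, 95% interval 5.88 to 8.27, edgeR's quasi-likelihood adjusted p = 5.8e-06; exact permutation p = 0.0079). As 0 Sham libraries reached the filter's 0.309 CPM, Cemip could be tested only if higher in TAC. Its direction was therefore set by the filter, and these p-values are no support for it. The size of the fold change rests on few Sham reads: without Sham 5, which held 9 of the 15, it was 8.02.

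Neither hyaluronidase was called, and the groups overlapped for both. Hyal2, a hyaluronidase anchored on the cell surface, ran from 28.2 to 34.9 CPM in Sham and from 26.7 to 33.6 in TAC. The means were 30.5 ± 2.67 and 29.9 ± 3.18 CPM, and the log2 fold change was -0.03 with a 95% interval of -0.21 to 0.14 (edgeR's quasi-likelihood adjusted p = 0.78). Its sign was positive with library size scaling (0.33) and upper-quartile scaling (0.02). Hyal1, the lysosomal hyaluronidase, ran from 3.04 to 5.20 CPM in Sham and from 2.50 to 4.52 in TAC (log2 fold change -0.30, SE 0.20, interval -0.69 to 0.10, adjusted p = 0.23; 0.06 with library size scaling). The genes lie side by side on chromosome 9, Hyal2 at 107567945 to 107572779 and Hyal1 at 107576927 to 107581710. Hyal1 shares 51.9% of its exonic bases with neighbouring genes, among them Nat6 (10.7 and 10.9 CPM in Sham and TAC, not called), so its count is uncertain.

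Added up per kb, the level of Hyal1, Hyal2 and Cemip divided by the summed synthase level was 7.28 ± 0.654 in Sham (6.67 to 8.21) and 11.6 ± 1.71 in TAC (9.23 to 13.2). Every TAC library was above every Sham library. The breakdown sum itself overlapped between the groups (9.73 to 11.9 CPM per kb in Sham and 9.605 to 13.2 in TAC), while the synthase sum did not. The 2 hyaluronidases contributed 10.4 ± 0.877 and 9.97 ± 1.08 CPM per kb, and Cemip 0.0106 and 1.34. Tmem2, a cell-surface hyaluronidase described below, is not part of this sum. Transcript levels do not measure enzyme activity.

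A list of 7 other breakdown genes had 4 tested members, and all 4 were higher in TAC (median log2 fold change 0.69, with 3 called when DESeq2's RLE factors replaced TMM). Hexa, a subunit of a lysosomal hexosaminidase that trims the fragments, rose from 79.5 ± 3.16 to 133 ± 20.9 CPM (0.74, SE 0.10). Gusb, the lysosomal glucuronidase, rose from 37.8 ± 2.94 to 58.0 ± 10.4 CPM (0.62, SE 0.12). Also higher was Tmem2, a cell-surface hyaluronidase related to Cemip and named after its values were seen (93.3 ± 32.7 to 146.0 ± 41.7 CPM, 0.65, SE 0.26, edgeR's quasi-likelihood adjusted p = 0.049), whose groups overlapped. Hyal3, Hyal4 and Spam1 were too low to test.

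**Figure D3:**
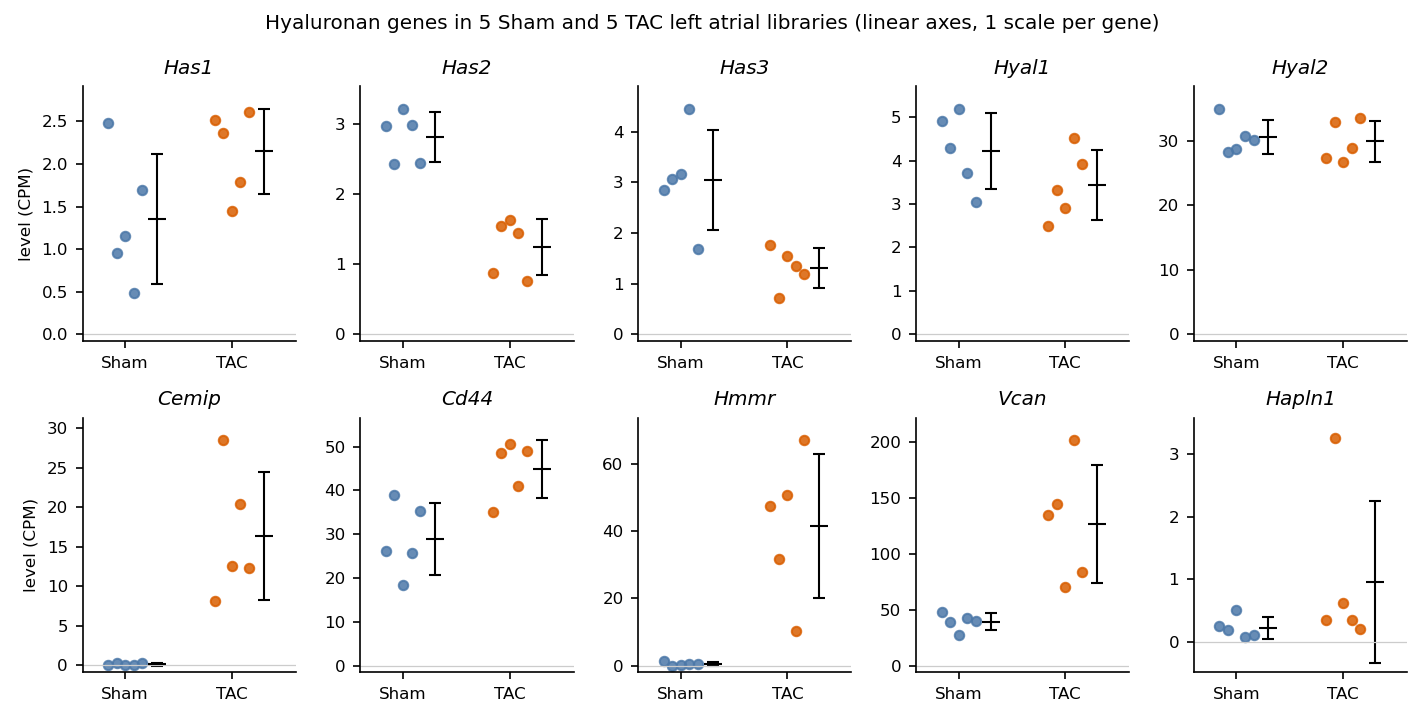
Level of each of the 10 hyaluronan genes in TMM-scaled CPM (vertical axis, own scale for each gene), with 1 point for each of 5 Sham and 5 TAC libraries and a black mark with bars for the group mean ± SD. The TAC points of Cemip, Hmmr and Vcan lie above all Sham points and those of Has2 below them, while Hapln1 in TAC is set by 1 library at 3.26 CPM.

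The binding genes held the remaining changes. Vcan encodes versican, the large chondroitin sulfate proteoglycan that binds hyaluronan through its N-terminal domain, and lies on chromosome 13 at 89655312 to 89742509. Its level was 48.2, 38.9, 27.3, 42.6 and 39.7 CPM in Sham 1 to 5 and 134, 144, 70.2, 202 and 83.7 CPM in TAC 1 to 5. The lowest TAC library stood above the highest Sham library, but TAC spread over a 2.87-fold range. The mean of Vcan rose from 39.4 ± 7.67 to 127 ± 52.5 CPM, which is a log2 fold change of 1.69 (SE 0.27, edgeR's quasi-likelihood adjusted p = 3.2e-04; exact permutation p = 0.0079). The genes whose profiles over the 10 libraries lay closest to it, by the root mean square difference of centred log2 CPM, included Zdhhc2 (0.252) and Cdca7 (0.316).

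Markers of fibroblasts, which are cells that make versican, moved in the same comparison. Of 8 genes of activated fibroblasts, 7 were higher and 0 lower, and their summed level was 288 to 411 CPM in Sham and 1811 to 4910 in TAC. General fibroblast markers had 6 of 10 higher and 2 lower (4927 to 6824 and 6777 to 13340 CPM). Per kb, Vcan relative to Col1a1 was 0.0806 to 0.113 in Sham and 0.0272 to 0.0991 in TAC. The part of fibroblast number in the Vcan and Cemip values was not tested.

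Cd44, the main cell-surface receptor for hyaluronan on leukocytes and mesenchymal cells, lies on chromosome 2 at 102811141 to 102901665. Sham 1 to 5 had 26.1, 38.9, 18.5, 25.8 and 35.4 CPM, and TAC 1 to 5 had 35.1, 48.6, 50.7, 41.1 and 49.0. The groups overlapped, as Sham 2 and Sham 5 were above TAC 1. The mean of Cd44 rose from 28.9 ± 8.18 to 44.9 ± 6.61 CPM, which is a log2 fold change of 0.64 (SE 0.18, edgeR's quasi-likelihood adjusted p = 0.011; exact permutation p = 0.024). Macrophage and monocyte markers were higher for 12 of 12 tested genes, with sums of 303 to 552 CPM in Sham and 798 to 1401 in TAC. Per kb, Cd44 relative to Ptprc, the pan-leukocyte gene, was 7.21 to 24.7 in Sham and 3.84 to 7.85 in TAC, with a small overlap. The part of leukocyte number in the Cd44 value was not tested. Closest in profile to Cd44 were Slc2a3 (0.111), Rhou (0.141) and Cchcr1 (0.171).

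Hmmr, also known as RHAMM, is both a hyaluronan-binding receptor and a microtubule-associated protein of the spindle, and lies on chromosome 11 at 40701395 to 40733422. It had 20, 0, 10, 16 and 11 reads in Sham 1 to 5 and 2052, 1275, 1716, 352 and 2538 in TAC 1 to 5. In CPM, TAC held 47.5, 31.8, 50.8, 10.3 and 67.0, and Sham at most 1.24. The lowest TAC library was above every Sham library, and the 0 in Sham 2 allows up to 0.192 CPM. The log2 fold change was 6.53 (SE 0.64, 95% interval 5.27 to 7.78, edgeR's quasi-likelihood adjusted p = 1.4e-05; exact permutation p = 0.0079). Only 3 Sham libraries reached the filter's 0.309 CPM, against 5 in TAC, so Hmmr needed TAC libraries to be tested. Its direction was therefore in part set by the filter, and these p-values are limited support for it.

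The genes closest to Hmmr in profile were Ccna2 (0.361), Ube2c (0.459) and Prc1 (0.555), which encode proteins of the cell cycle and mitosis. All 20 genes of the mitosis and spindle list were higher, against 28.9% of all tested genes, with a median log2 fold change of 4.86. Some of them lay partly below the filter's 0.309 CPM in Sham, among them Bub1 (0 to 0.931 CPM) and Plk1 (0.113 to 0.541 CPM). The direction of such genes was in part set by the filter. The summed level of the list in TAC 1 to 5 was 752, 546, 855, 257 and 1028 CPM, which ranks the libraries in the same order as Hmmr, and in Sham it was 11.4 to 48.0. TAC 4, the lowest for Hmmr, was the highest for Vcan. The Hmmr promoter printed above held 5 CCAAT boxes. Of 18 promoters of that list, 16 held at least 1 and 10 at least 2, against 37.4% and 11.7% of all promoters. Whether these boxes bear on the Hmmr values was not tested.

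Hapln1, the link protein that fastens versican and aggrecan to hyaluronan, lies 43659 bases from Vcan on chromosome 13, at 89539796 to 89611652. Its counts were 4, 3, 17, 3 and 3 in Sham 1 to 5 and 15, 131, 21, 12 and 8 in TAC 1 to 5. In CPM, TAC 2 held 3.26 and the other TAC libraries 0.211 to 0.622, while Sham ran from 0.0773 to 0.517. The log2 fold change of 2.04 (SE 0.85, edgeR's quasi-likelihood adjusted p = 0.060; exact permutation p = 0.13) was not called, and without TAC 2 it was 0.73 (adjusted p = 0.28). The list of valve and cartilage markers, of 6 genes with 5 tested, had 3 higher and 0 lower, with sums of 38.7 to 87.7 CPM in Sham and 132 to 233 in TAC. Among the TAC libraries, TAC 2 was the highest for Acan, Col2a1 and Comp of that list but not for Sox9, Chad or Cilp, and the sum was highest in TAC 4 (233 CPM, against 211 in TAC 2), where Hapln1 was 0.352 CPM. Cilp was the largest part of the sum in TAC, at 142 CPM in TAC 4 and 110 in TAC 2. It ran from 1.70 to 6.08 CPM in Sham and from 68.7 to 146 in TAC. Comp, the next largest, overlapped between the groups (26.1 to 81.3 and 35.4 to 82.1 CPM). The separation of the sums thus rests largely on Cilp. Whether valve tissue contributed to these values was not tested.

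**Figure D4:**
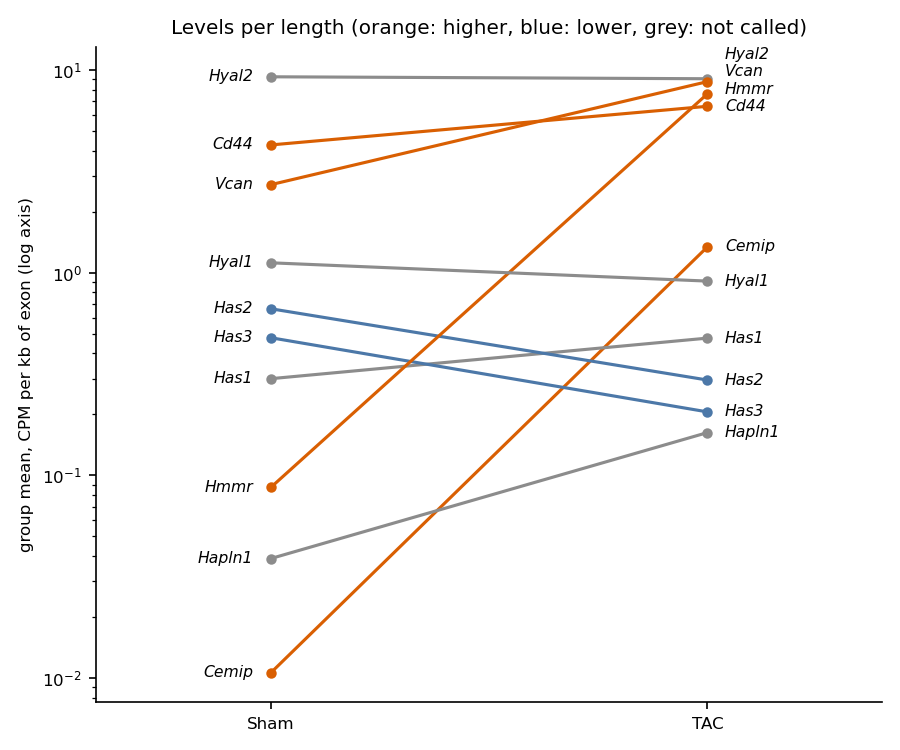
Group mean level of the 10 hyaluronan genes per kb of exon (CPM per kb, log axis) in Sham and TAC, each the mean of 5 libraries, joined by a line for each gene and coloured orange for genes called higher, blue for genes called lower and grey for genes not called. Hyal2 leads in both groups at 9.27 and 9.06, while Hmmr goes from 0.0873 to 7.64 and Cemip from 0.0106 to 1.34.

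Compared per kb of exon, Hyal2 was the most abundant member in Sham at 9.27 ± 0.810 CPM per kb, followed by Cd44 (4.27 ± 1.21), Vcan (2.72 ± 0.531) and Hyal1 (1.12 ± 0.232). The synthases followed at 0.664 (Has2), 0.477 (Has3) and 0.300 (Has1), and Hmmr, Hapln1 and Cemip were below 0.1. The ranges of Cd44 and Vcan overlapped, as did those of Has2, Has3 and Has1 in turn, whereas Hyal2 stood above Cd44, Vcan above Hyal1 and Hyal1 above Has2 in every library. In TAC, Hyal2 at 9.06 ± 0.965, Vcan at 8.77 ± 3.63, Hmmr at 7.64 ± 3.95 and Cd44 at 6.63 ± 0.976 followed each other with overlapping ranges between neighbours, although Hyal2 (8.12 to 10.2) stood clear of Cd44 (5.18 to 7.48). Next came Cemip (1.34 ± 0.661) and Hyal1 (0.909 ± 0.214), which also overlapped, then Has1, Has2, Has3 and Hapln1 at 0.476, 0.295, 0.206 and 0.163.

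Of 6 other hyaluronan receptors, all tested, 2 were higher and 1 was lower, with a median log2 fold change of -0.04 (0.32 with library size scaling). Lyve1, the receptor of lymphatic vessels and of a set of resident macrophages, was 96.4, 83.1, 41.3, 43.1 and 124.9 CPM in Sham 1 to 5 and 24.1, 6.10, 7.96, 9.81 and 14.7 CPM in TAC 1 to 5. Its groups did not overlap, and it fell by 2.63 on the log2 scale (SE 0.43, edgeR's quasi-likelihood adjusted p = 4.3e-04), against the direction of Cd44. Tlr2, a pattern receptor reported to sense hyaluronan fragments, rose from 6.95 ± 2.23 to 18.7 ± 4.42 CPM (1.41, SE 0.25). Layn, or layilin, a transmembrane hyaluronan receptor, rose from 5.98 ± 1.27 to 12.7 ± 1.26 CPM (1.09, SE 0.15).

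**Figure D5:**
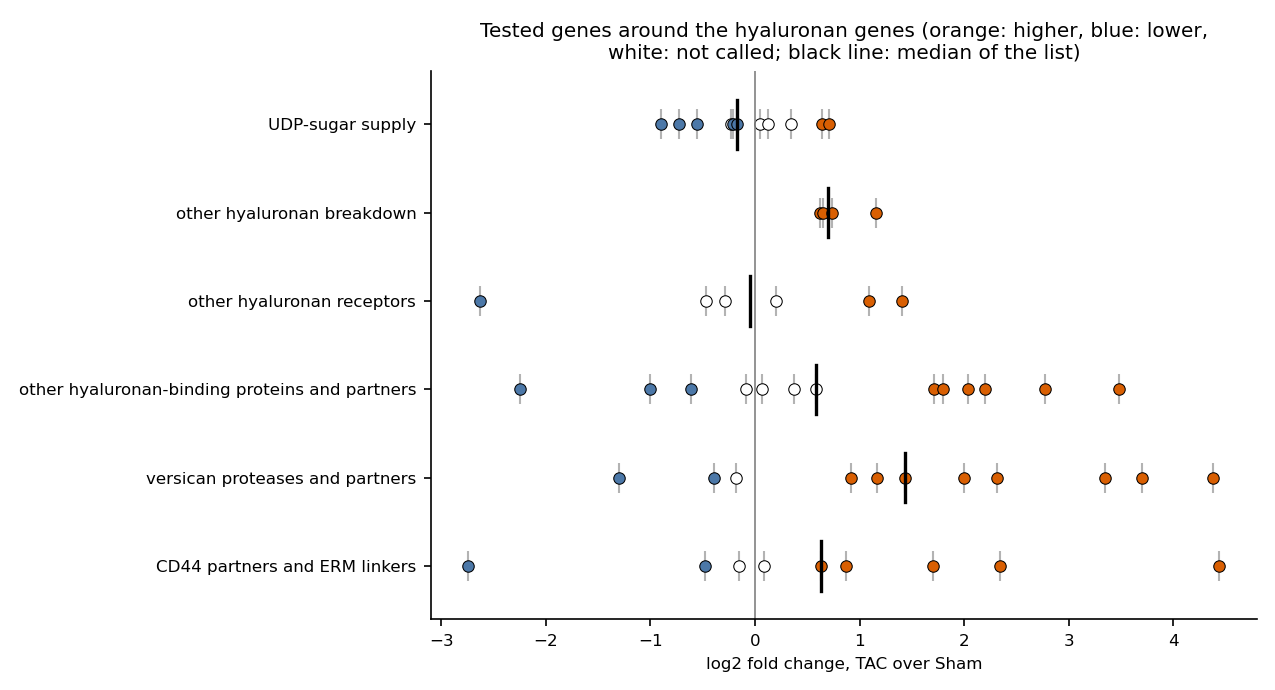
Log2 fold change of TAC over Sham (horizontal axis) for each tested gene of 6 lists around hyaluronan, 1 point per gene, with called genes in orange (higher) or blue (lower), genes not called in white and the list median as a line. The list of versican proteases and partners has a median of 1.43 and the UDP-sugar list one of -0.17, against 0.01 over all tested genes.

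Of 17 other hyaluronan-binding proteins and partners, 13 were tested, 6 were higher and 3 lower, and the median log2 fold change was 0.58. Itih5 and Itih2, heavy chains of the inter-alpha-trypsin inhibitor family that are transferred onto hyaluronan, rose from 17.5 ± 3.88 to 80.0 ± 24.8 CPM (2.20, SE 0.22) and from 2.23 ± 0.681 to 7.17 ± 1.47 CPM (1.71, SE 0.22). Ptx3, a pentraxin that joins heavy chains into a hyaluronan network, rose from 0.866 ± 0.257 to 3.53 ± 1.23 CPM (2.04, SE 0.29), whereas Habp4, an intracellular protein named for hyaluronan binding, fell from 83.9 ± 5.33 to 55.1 ± 4.90 CPM (-0.61, SE 0.08). Of the other proteoglycans of the versican family, named after their values were seen, Acan (aggrecan) went from 0.196 ± 0.165 to 2.49 ± 1.85 CPM and Ncan (neurocan) from 0.103 ± 0.0404 to 0.752 ± 0.376 CPM. With at most 0.413 and 0.155 CPM in a Sham library, they entered the test through TAC, so their direction was set by the filter. The other tested link proteins, also named afterwards, split: Hapln4 rose from 0.411 ± 0.203 to 1.49 ± 0.846 CPM and Hapln3 fell from 1.05 ± 0.350 to 0.523 ± 0.308 CPM. The groups overlapped for both. Hapln4 held 0.124 to 0.670 CPM in Sham, around the filter's 0.309 CPM, so its direction was in part set by the filter.

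The list of versican proteases and partners had the highest median of the pathway lists, 1.43, with 8 of 11 tested genes higher and 2 lower. Fbln2, a fibulin that binds versican, rose from 118 ± 11.1 to 318 ± 43.0 CPM (1.43, SE 0.11), and Tnc, the matrix glycoprotein tenascin-C, rose from 0.861 ± 0.640 to 17.1 ± 7.24 CPM (4.38, SE 0.42). Of the 7 tested ADAMTS proteases of the list, 5 were higher (Adamts4, Adamts8, Adamts9, Adamts15 and Adamts20), 1 was lower (Adamts1) and Adamts5 was not called. Adamts20 held only 0.128 to 0.450 CPM in Sham and entered the test mainly through TAC, so its direction was in large part set by the filter. Adamts8 rose from 47.3 ± 20.8 to 615 ± 166 CPM (3.70, SE 0.37), and Adamts1, a versican-cleaving protease, fell from 212 ± 91.9 to 86.3 ± 11.1 CPM (-1.30, SE 0.24). Sham 5 was the lowest Sham library for Adamts8, at 15.5 CPM, and the highest for Adamts1, at 368.

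Among 9 partners of CD44 and linkers to the cell cortex, 5 were higher and 2 lower, with a median of 0.63. Spp1, the CD44 ligand osteopontin, rose from 0.302 ± 0.147 to 6.78 ± 4.45 CPM (4.44, SE 0.51), Mmp14, a membrane protease that can shed CD44, from 25.2 ± 3.10 to 82.1 ± 28.5 CPM (1.70, SE 0.21), and Msn, the linker moesin, from 241 ± 27.03 to 441 ± 74.1 CPM (0.87, SE 0.13). In Sham, Spp1 held 0.155 to 0.488 CPM, around the filter's 0.309 CPM. It entered the test mainly through TAC, so its direction was in large part set by the filter. Mmp9, a protease that docks on CD44, fell from 5.54 ± 1.51 to 0.820 ± 0.463 CPM (-2.74, SE 0.38). Spp1 is also a gene of activated macrophages, and its highest library, TAC 2 at 14.3 CPM, was also the highest for Mmp14 and for Cemip. Every count of the pathway and marker lists is to be read against the 28.9% of tested genes that were higher and the 27.9% that were lower.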

How the data were processed

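The deposited values were raw counts per gene symbol, 1 table per library, made by the authors without normalization. STAR, bcl2fastq and the mouse build mm10 are named without versions in the submitters' processing notes, while the sources used here do not give the counter, its strand setting or the annotation. The design text and the labels also name different library kits. The 5 tally rows that name no gene (25.9% to 29.1% of reads) were left out. No 2 replicates agreed within sampling noise, the lowest chi-square per gene being 20.4.

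In R 4.3.3, edgeR 4.0.16 was used for a quasi-likelihood test of the counts. TMM factors and the default filterByExpr were applied, dispersion estimation was robust, and the model held the group alone. P-values were adjusted by Benjamini-Hochberg over the 15175 genes tested. Standard errors were taken as the absolute log2 fold change over the square root of F. Exact two-sided permutation tests of the difference of means were run on CPM in Python 3.11.15, going through all 252 regroupings. They were run for each member and list gene, and are printed for members only. Levels are mean ± SD over 5 libraries, and comparisons between genes use CPM per kb of merged exons (GENCODE M21, GRCm38, the assembly also called mm10). Floors are 3 counts and cover counting error only.

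The members and gene lists were chosen with earlier results of these data known, from general knowledge of the pathway. Named are all members, the genes sharing exonic bases with them, up to 3 called genes of each pathway list with the smallest adjusted p in the direction with more calls and 1 in the other, and the 3 genes closest in profile to Has2, Cd44, Vcan and Hmmr, except that 2 of these genes are not reported here. Alternatives were DESeq2 1.42.0, limma 3.58.1 voom, other scalings and filters, a replicate block, and each library left out in turn. Of the other marker lists, higher and lower calls were 3 and 1 of 8 for endothelium, 4 and 1 of 7 for smooth muscle, 1 and 0 of 7 for mesothelium, 3 and 0 of 4 for lymphocytes and neutrophils, 1 and 1 of 3 for ventricular cardiomyocytes, 1 and 3 of 4 for adipocytes, 0 and 3 of 4 for neurons and Schwann cells, and 5 and 0 of 5 for erythroid cells. For these, summed levels overlapped between the groups except for smooth muscle, lymphocytes and neutrophils, and neurons. The 3 higher genes of the lymphocyte and neutrophil list were its neutrophil genes S100a8, S100a9 and Csf3r. Cd4, the only lymphocyte gene tested, was not called, and the other lymphocyte genes were too low to test.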

Additional observations from a re-analysis of the deposited data

Results flagged for a closer look

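Hapln1 in TAC 2 was far from the other libraries of its group. Its 3.26 CPM left a gap to the next library, at 0.622 CPM, that was 0.865 of the range of the group, above Dixon's 95% value of 0.71 for 5 samples. Chance alone passes that value in about 1 of 20 groups, and 20 groups (10 genes in Sham and in TAC) were looked at.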

How the results depend on the processing

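The counts of 4 members higher and 2 lower were the same under RLE and upper-quartile scaling, without a filter on low counts, and with the 2 shallowest Sham libraries left out, and 2 were lower under every alternative run. Library size scaling gave 7 higher, adding Has1 (log2 fold change 1.06, edgeR's quasi-likelihood adjusted p = 0.024), Hyal2 (0.33, adjusted p = 0.023) and Hapln1 (2.41, adjusted p = 0.027). It moved all genes to 7741 higher and 1929 lower, reversed Hyal1 to 0.06 and moved the synthase ratio to 0.865. Over all genes, requiring an absolute log2 fold change of 1 gave 1781 and 1229 genes. Hyal2 also reversed to 0.02 with upper-quartile scaling and ranged from -0.06 to 0.02 with libraries left out in turn. Has1 was called by limma voom (0.95, adjusted p = 0.048). Hapln1 was called by DESeq2 (2.06, adjusted p = 0.021) and without Sham 3 (2.73), TAC 1 (2.28), TAC 4 (2.27) or TAC 5 (2.32), and a mean CPM filter of 1 left it untested. Of 199 values of single members under alternatives, 184 kept direction and call, 9 passed the threshold in addition, 6 reversed and 0 lost a call. These values do not include the stricter thresholds, an adjusted p under 0.01 or an absolute log2 fold change of 1, at each of which Cd44 lost its call and 3 members were higher. Same-numbered Sham and TAC libraries did not deviate together (correlations -0.0355 to 0.0796, and 1 of 5 pairs best with its own number), so the numbers were not taken as pairs. A replicate block gave 4 members higher and 2 lower, and 4103 and 3917 genes. Depth limits Cemip, Hmmr and Hapln1 in Sham (15, 57 and 30 reads in all), and their folds are uncertain for that reason.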

Other observations

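TAC 4 had the lowest Hmmr (10.3 CPM) and the highest Vcan (202 CPM), and TAC 3 had the lowest Vcan of its group (70.2 CPM), the highest sum of erythroid genes (2547 CPM, against 136 to 300 in Sham) and the second highest Hmmr (50.8 CPM). Per kb, Hmmr relative to Top2a ran from 0.416 to 0.799 over the TAC libraries, while Hmmr itself spread 6.48-fold. In Sham, where Hmmr held at most 20 reads, this ratio ran from 0 to 0.913 and so overlapped TAC. The ratio of Has1 to Has2 per kb ran from 0.154 to 0.782 in Sham and from 0.836 to 3.20 in TAC, with no overlap.

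The genes closest in profile to Has2 over the 10 libraries were Olfm1 (0.217), Gm28609 (0.222) and Pnmal2 (0.229), by the root mean square difference of centred log2 CPM.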
